A study of Mus musculus with 7 samples.

Results

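Fibroblast markers and matrix glycoproteins were examined in the hearts of fasted mice with and without Krüppel-like factor 15 (KLF15). The group was a list of 36 genes: fibulins, small leucine-rich proteoglycans, elastic and microfibril proteins, enzymes and chaperones of collagen processing, matricellular proteins, large adhesive and basement membrane proteins, and fibroblast receptors. A probe set annotated to exactly 1 gene symbol was found for 34 of the 36, among 12393 such genes on the array. Fbn1 (fibrillin 1) had none, and the probe set of Loxl2 was shared with another gene. The 34 genes had 61 probe sets, and each gene was read on the probe set with the highest WT mean. A filter on low signal (7-array mean at or above log2 5.74) kept 31 of the 34 genes and 49 of the 61 probe sets, against 8400 genes and 13576 probe sets in all; Efemp1, Lox and Tnc lay below it.

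The extracellular matrix of the heart is a network of collagen and elastic fibers, proteoglycans and adhesive glycoproteins, most of it made by resident fibroblasts. Small leucine-rich proteoglycans bind collagen fibrils and shape their width and spacing, while fibulins and microfibril proteins organise elastic fibers. Matricellular proteins such as thrombospondins, tenascin C and periostin signal to cells more than they build structure, and are known to increase when the heart is injured or overloaded. KLF15 is a zinc finger transcription factor of metabolic tissues and heart muscle, where it is known to restrain growth and fibrosis.

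Total RNA of whole hearts was hybridised to Affymetrix 3′ expression arrays, 3 from KLF15-null mice and 4 from WT mice. All mice carried the labels C57/BL6 and male, were 3 to 4 months old and had been fasted for 18 h, so that fasting was shared by both genotypes and no fed heart was compared. The labels do not say which stretch of the gene was deleted, whether littermates were used or whether hearts were pooled. The p-values therefore measure the spread between these arrays.

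Klf15 itself, read on its 1 probe set, was at 6.52, 6.23 and 6.23 on the log2 signal scale in KLF15-null hearts, against 8.68, 8.98, 8.73 and 9.08 in WT hearts. The groups did not overlap, with a log2 difference of -2.54 (SE 0.13, limma adjusted p = 1.26e-06). The label male was not borne out by the arrays: 2 of the 3 Xist probe sets lay at the 91.4th and 86.8th percentile of all probe sets on the 7-array mean, and the 6 probe sets of the Y-linked genes Eif2s3y, Kdm5d and Uty lay at or below the 27.3th percentile. The same held in both genotypes, since Xist on its brightest probe set was between 8.57 and 9.62 in KLF15-null hearts and between 9.82 and 9.94 in WT hearts. Array medians ran from 6.22 to 6.33. The correlation between arrays over the whole probe set table (Pearson's r) was 0.986 to 0.993 between KLF15-null arrays, 0.995 to 0.997 between WT arrays and 0.942 to 0.964 across genotypes. The heart label fitted the values, as the mean over 12 cardiomyocyte markers was 13.26 to 13.54 in KLF15-null hearts and 13.21 to 13.40 in WT hearts.

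Loss of KLF15 went with changes of the matrix genes in both directions. Of the 31 genes tested, 8 were higher in KLF15-null hearts, 8 were lower and 15 did not pass an adjusted p of 0.05. All differences are KLF15-null minus WT on the log2 scale. By the probe set brightest in WT, the fibulin Fbln1, the proteoglycans Lum, Dcn and Ogn, Sparcl1, Hspg2 and the collagen receptor Ddr2 fell. By the same reading, thrombospondin 4 (Thbs4), versican (Vcan), fibronectin (Fn1), Pcolce, Bgn, Emilin1 and the growth factor receptor Pdgfra rose. For Hspg2, Bgn and Emilin1 the other tested probe sets had the opposite sign without passing. Averaging the probe sets of each gene took these calls away (adjusted p = 0.802, 0.335 and 0.0958). Serpinh1 is counted among the lower and Pdgfrb among the higher genes by the probe set brightest in WT, but each was called the opposite way on its other probe set, so neither is given a direction. These shares, 25.8% in each direction, stand beside a background in which 25.3% of all tested genes were called higher and 21.2% lower, so the share of members called was near that of genes in general. Counted by probe set, 13 of 49 were higher and 14 lower, against 26.8% and 23.8% of all tested probe sets. The median difference was -0.12 over the 31 genes and 0.01 over all tested genes. The 2 groups of arrays did not overlap in 16 of the 31 members (51.6%), the same 16 that were called, and in 49.4% of all tested genes. At a limit of at least 2-fold besides the adjusted p, 4 of the 31 were higher (12.9%) and 5 lower (16.1%), Pdgfrb and Serpinh1 included, where 5.94% of all tested genes were higher and 4.2% lower. Vcan, among the 4, passed the filter only through its KLF15-null signal. The members were chosen with earlier results of these data known, so these shares describe the list and test nothing about it.

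**Figure D1:**
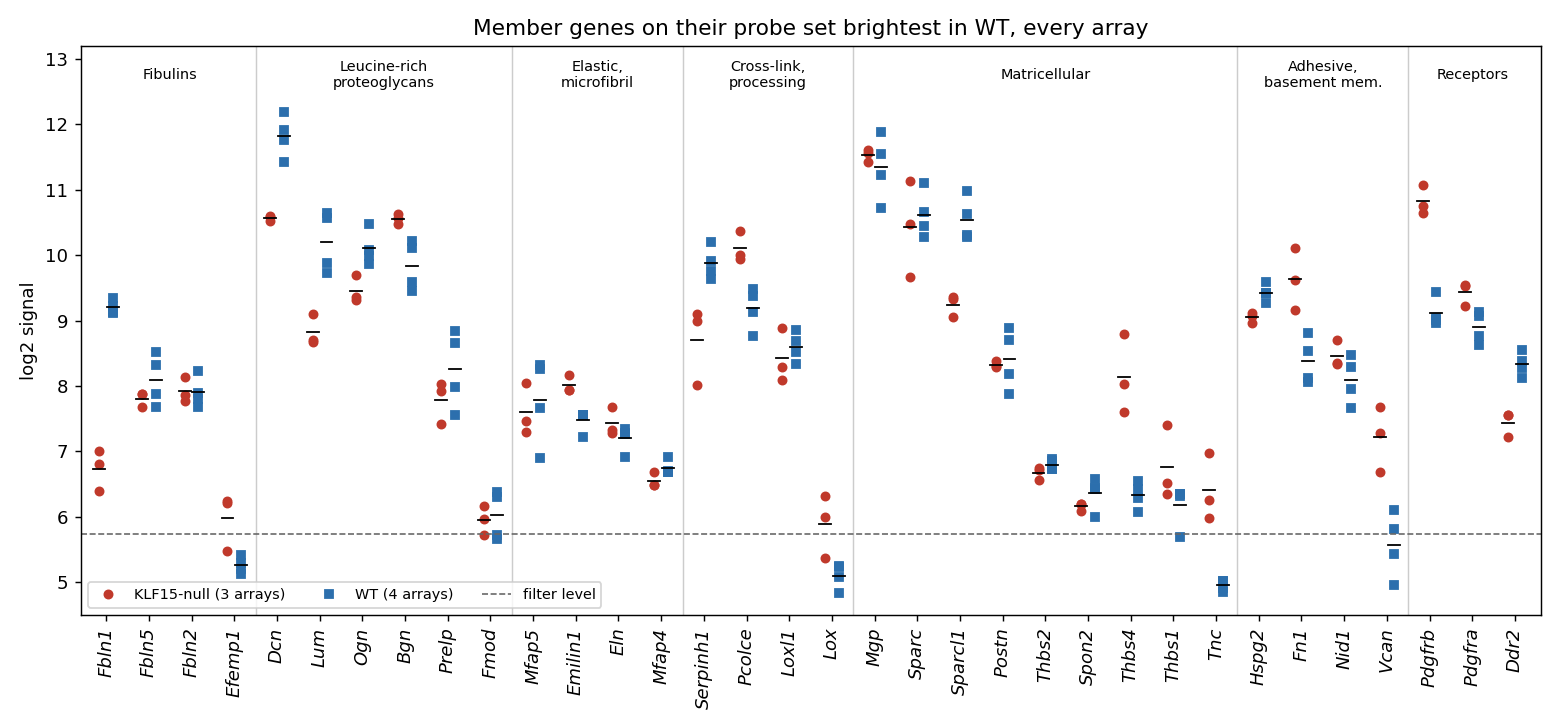
Log2 signal (vertical axis) of the 34 member genes by role on every array, KLF15-null as red circles and WT as blue squares, with group means as black bars and the filter level of 5.74 as a dashed line. Fbln1, Dcn, Lum and Sparcl1 lie wholly lower in KLF15-null hearts, and Thbs4, Vcan and Fn1 wholly higher; Pdgfrb and Serpinh1 are shown on 1 of 2 probe sets that gave opposite calls, and levels of different genes come from different probe sets and are not comparable.

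Promoters of 4 called members are shown for what lies at their starts, Fbln1 and Ddr2 from the genes that fell and Thbs4 and Vcan from those that rose. Genes with a larger fall than Ddr2, such as Lum, Dcn and Sparcl1, are not shown. Each is the RefSeq window from 250 bases before to 50 bases after the gene's start on GRCm38.p6, written 5′ to 3′ on the gene's strand. Capitals mark CCACCC or its reverse complement GGGTGG, a form of the CACCC box that Krüppel-like factors are known to bind. For Fbln1, which has more than 1 start in the table, the window of its most upstream start is given.
Fbln1, chr15:85205699-85205998, plus strand: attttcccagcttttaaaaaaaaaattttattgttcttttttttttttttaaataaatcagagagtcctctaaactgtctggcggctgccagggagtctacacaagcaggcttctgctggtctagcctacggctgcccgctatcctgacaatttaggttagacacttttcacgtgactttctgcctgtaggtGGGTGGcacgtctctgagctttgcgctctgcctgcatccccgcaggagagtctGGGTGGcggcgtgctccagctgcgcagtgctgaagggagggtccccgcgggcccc
Ddr2, chr1:170088895-170089194, minus strand: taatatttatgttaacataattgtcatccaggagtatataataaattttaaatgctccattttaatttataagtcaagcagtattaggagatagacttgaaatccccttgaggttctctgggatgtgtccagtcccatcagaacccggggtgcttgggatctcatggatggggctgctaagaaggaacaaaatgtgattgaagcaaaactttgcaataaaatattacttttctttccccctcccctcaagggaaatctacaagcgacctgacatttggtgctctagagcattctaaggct
Thbs4, chr13:92794769-92795068, minus strand: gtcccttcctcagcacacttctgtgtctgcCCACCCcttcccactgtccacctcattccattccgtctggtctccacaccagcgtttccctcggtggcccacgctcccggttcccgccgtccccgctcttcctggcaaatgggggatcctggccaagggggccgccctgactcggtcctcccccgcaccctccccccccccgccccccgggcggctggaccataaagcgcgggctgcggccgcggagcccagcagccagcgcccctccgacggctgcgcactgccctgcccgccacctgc
Vcan, chr13:89742463-89742762, minus strand: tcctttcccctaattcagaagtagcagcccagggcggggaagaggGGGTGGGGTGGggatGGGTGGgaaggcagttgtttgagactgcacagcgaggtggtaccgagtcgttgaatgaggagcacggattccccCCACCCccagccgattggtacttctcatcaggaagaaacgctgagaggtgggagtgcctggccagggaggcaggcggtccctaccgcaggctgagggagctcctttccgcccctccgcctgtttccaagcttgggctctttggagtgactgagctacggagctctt
The word was present at 2 places in the window of Fbln1, at 1 in that of Thbs4 and at 4 in that of Vcan, and was not among the letters of the Ddr2 window. Over both strands it occurred in 31.5% of all 32851 promoter windows, and in 13 of 25 windows of the 21 members found in the table. Members holding it in any of their windows were 4 of the 6 genes called higher and 3 of the 5 called lower among those with a window. These calls are by the probe set brightest in WT. Shares over all windows count single windows, so they are not a like share for genes, which can have more than 1. A GC box word, GGGCGG or CCGCCC, counted separately and free to lie beside or across the CACCC word, was in 35.7% of all windows, in 13 of the 25 member windows, and again in 4 of the 6 and 3 of the 5. Binding was not measured, and a match is only a description of these letters.

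Among the fibulins, glycoproteins that link elastic fibers and basement membranes, Fbln1 had the largest fall of all members. Its signal was 6.81, 6.39 and 7.001 in KLF15-null hearts, against 9.13, 9.11, 9.34 and 9.22 in WT hearts. Every KLF15-null array was more than 2 log2 units below every WT array, and the mean of 6.73 ± 0.31 (SD, n = 3) against 9.20 ± 0.10 (SD, n = 4) was a 5.53-fold lower level (log2 difference -2.47, SE 0.15, adjusted p = 2.30e-06). A second Fbln1 probe set was also lower, by a log2 difference of -1.18 (adjusted p = 0.00119). Fbln2 and Fbln5, which bind elastic fibers and their precursors, differed by 0.02 and -0.29 (adjusted p = 0.916 and 0.234). Efemp1, or fibulin 3, was not tested; it read 5.47, 6.22 and 6.23 in KLF15-null hearts, against 5.20, 5.30, 5.42 and 5.13 in WT hearts, without overlap but with the WT mean below the filter level. Of the 3 fibulins tested, 1 was thus lower and 0 higher.

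The small leucine-rich proteoglycans divided, with 3 of 6 lower and 1 higher. Decorin (Dcn), which binds collagen I fibrils and growth factors, was at 10.59, 10.52 and 10.60 in KLF15-null hearts and at 11.42, 11.77, 12.19 and 11.92 in WT hearts. The KLF15-null arrays lay within 0.1 of one another and below all WT arrays, a 2.38-fold lower level (difference -1.25, SE 0.17, adjusted p = 0.000197). Lumican (Lum), a keratan sulfate proteoglycan of collagen fibrils, was at 9.10, 8.70 and 8.67 in KLF15-null hearts and at 9.73, 9.88, 10.65 and 10.57 in WT hearts, 2.61-fold lower (difference -1.38, SE 0.24, adjusted p = 0.000961). Osteoglycin (Ogn), which also associates with collagen, fell on both of its probe sets by unequal amounts. The brighter read 9.36, 9.32 and 9.69 in KLF15-null hearts, against 9.86, 9.99, 10.48 and 10.07 in WT hearts (difference -0.65, SE 0.16, adjusted p = 0.0087). The other read 7.22, 7.19 and 7.53 in KLF15-null hearts, against 9.33, 9.52, 9.83 and 9.59 in WT hearts (difference -2.26, SE 0.14, adjusted p = 2.99e-06).

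Biglycan (Bgn), the closest relative of decorin, went the other way on its brightest probe set. It was at 10.48, 10.63 and 10.57 in KLF15-null hearts, against 9.45, 9.59, 10.22 and 10.10 in WT hearts (difference 0.72, SE 0.19, adjusted p = 0.0106). The groups did not overlap, but the remaining 2 Bgn probe sets differed by only -0.08 and -0.16 and neither passed; the call was lost after quantile normalization (adjusted p = 0.0557) and when its probe sets were averaged (difference 0.16, adjusted p = 0.335). Prelp, a proteoglycan that anchors basement membrane to connective tissue, differed by -0.47 on its brightest probe set (adjusted p = 0.21) and fell by 0.62 on the other (adjusted p = 0.0257); the difference on the brightest was -0.70 without WT 1, which passed (adjusted p = 0.0469), and -0.28 without WT 3 (adjusted p = 0.45) or without KLF15-null 2 (adjusted p = 0.486). Fibromodulin (Fmod), which modulates collagen fibril growth, differed by -0.07 (adjusted p = 0.775), while of its 5 other probe sets, all of the type that can match other transcripts, 1 was called higher at 1.53 (adjusted p = 0.0238), 1 missed the threshold and 3 were below the filter. The groups overlapped on the 1 called, and its WT mean of 5.09 lay below the filter level, so that it was tested through its KLF15-null signal. All 5 had a higher mean in KLF15-null hearts, with overlap on each. The 1 that missed gave 0.41 (adjusted p = 0.0529). The 3 below the filter gave 0.58, 0.67 and 0.44 (adjusted p = 0.0168, 0.0468 and 0.0841 with no filter).

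These proteoglycan genes lie in clusters on the mouse chromosomes, and their immediate neighbours in the RefSeq gene order were read as well. On chromosome 10, Dcn and Lum are followed by Kera and Epyc, both below the filter, with differences of -0.10 and 0.05. On chromosome 13, Ogn lies with Omd, Aspn and Ecm2. Asporin (Aspn), a collagen-binding relative, was at 4.75, 4.67 and 4.75 in KLF15-null hearts and at 5.67, 5.95, 6.79 and 6.38 in WT hearts, a difference of -1.47 that passed when no filter was used (adjusted p = 0.000669). Omd, osteomodulin, differed by -0.34 (adjusted p = 0.00672 with no filter) at signals under 5 on every array, and Ecm2 had no probe set of 1 symbol. On chromosome 1, Optc beside Prelp and Fmod differed by -0.07 and lay below the filter.

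Of the 4 elastic and microfibril genes tested, 1 rose. Emilin1, a glycoprotein at the interface of elastin and microfibrils, read 8.17, 7.94 and 7.94 in KLF15-null hearts, against 7.22, 7.56, 7.56 and 7.56 in WT hearts (difference 0.54, SE 0.12, adjusted p = 0.00386). Its groups did not overlap, but its other probe set gave -0.18 (adjusted p = 0.137) and the mean of both gave 0.18 (adjusted p = 0.0958). Elastin (Eln), the core of elastic fibers, gave 0.23 on the probe set brightest in WT (adjusted p = 0.196) and fell by 0.29 on the other (adjusted p = 0.0477). Mfap5, a microfibril-associated glycoprotein, was similarly divided, at -0.18 (adjusted p = 0.665) and 0.50 (adjusted p = 0.0393). Mfap4, which also binds microfibrils, gave -0.20 (adjusted p = 0.106), and between -0.14 and -0.27 with single arrays left out, passing only without KLF15-null 1 (adjusted p = 0.0477).

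Collagen processing genes gave 1 rise and 1 fall among 3 tested. Pcolce, the enhancer of the protease that trims procollagen, read 10.01, 10.36 and 9.95 in KLF15-null hearts, against 8.76, 9.13, 9.48 and 9.38 in WT hearts (difference 0.92, SE 0.18, adjusted p = 0.00237). No KLF15-null array overlapped with a WT array, and its other probe set gave 0.42 (adjusted p = 0.0823). Serpinh1, the collagen chaperone HSP47, gave opposite calls on its probe sets. The one brightest in WT read 9.11, 8.01 and 8.996 in KLF15-null hearts, against 9.63, 9.92, 10.20 and 9.76 in WT hearts (difference -1.17, SE 0.25, adjusted p = 0.00375). The other read 10.68, 10.41 and 10.74 in KLF15-null hearts, against 9.42, 9.91, 10.12 and 9.72 in WT hearts (difference 0.82, SE 0.17, adjusted p = 0.003). The direction of Serpinh1 therefore depends on the probe set, and their mean gave -0.18 (adjusted p = 0.489). Loxl1, a lysyl oxidase relative needed for elastic fibers, gave -0.18 (adjusted p = 0.477). Lysyl oxidase (Lox), which cross-links collagen and elastin, was not tested at 6.32, 5.36 and 5.99 in KLF15-null hearts and 4.84, 5.08, 5.23 and 5.25 in WT hearts. The groups did not overlap and the difference of 0.79 had an adjusted p of 0.0119 with no filter. Its other probe sets, also below the filter, gave 0.12 and 0.02 with overlap (adjusted p = 0.265 and 0.893 with no filter).

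Of the 8 matricellular genes tested, Thbs4 rose, Sparcl1 fell and 6 did not pass. Thrombospondin 4, a calcium-binding adhesive protein of stressed muscle and tendon, had the largest rise of all members, at 8.79, 8.04 and 7.60 in KLF15-null hearts against 6.07, 6.29, 6.42 and 6.54 in WT hearts. The lowest KLF15-null array was over 1 log2 unit above the highest WT array, a 3.51-fold higher level (difference 1.81, SE 0.24, adjusted p = 0.0002). Sparcl1, a relative of Sparc known as hevin, was at 9.36, 9.05 and 9.32 in KLF15-null hearts and 10.27, 10.31, 10.98 and 10.63 in WT hearts (difference -1.30, SE 0.18, adjusted p = 0.00026). Tenascin C (Tnc), a hexameric glycoprotein of remodelling tissue, was below the filter because its WT signal was dim, at 6.97, 6.26 and 5.99 in KLF15-null hearts and 4.85, 4.92, 5.02 and 5.03 in WT hearts. Its groups were separate and its difference of 1.46 had an adjusted p of 0.000312 with no filter. The WT mean was below the filter level and no background was measured, which limits what the size of the difference can show.

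The other thrombospondins differed less. Thbs1, an activator of latent TGF-beta, gave 0.58 (adjusted p = 0.0832), with KLF15-null 1 at 7.41 above the others at 6.35 and 6.52; without KLF15-null 1 the difference was 0.26 (adjusted p = 0.292), and without KLF15-null 2 it was 0.78 and passed (adjusted p = 0.0336). Thbs2, which limits vessel growth, gave -0.12 (adjusted p = 0.277). Sparc, a collagen-binding protein secreted by fibroblasts, spread from 9.67 to 11.13 in KLF15-null hearts and from 10.27 to 11.10 in WT hearts on its brightest probe set (difference -0.20, adjusted p = 0.631; 0.18 without KLF15-null 2), but rose by 0.86 on the other (adjusted p = 0.0035), where the groups did not overlap. Periostin (Postn), a marker of activated fibroblasts, gave -0.09 (adjusted p = 0.769), and Mgp, an inhibitor of calcification, gave 0.19 (adjusted p = 0.532), and -0.21 after quantile normalization (adjusted p = 0.366). Spon2 gave -0.19 (adjusted p = 0.242), and between -0.12 and -0.31 with single arrays left out, passing only without WT 2 (adjusted p = 0.0224).

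The large adhesive proteins rose in 2 of 4 cases and fell in 1. Fibronectin (Fn1), the main adhesive glycoprotein of early matrix, was at 10.11, 9.63 and 9.16 in KLF15-null hearts and at 8.07, 8.13, 8.81 and 8.54 in WT hearts (difference 1.24, SE 0.24, adjusted p = 0.00203). Versican (Vcan), a large chondroitin sulfate proteoglycan, was at 7.68, 7.27 and 6.69 in KLF15-null hearts and at 4.95, 5.44, 6.11 and 5.81 in WT hearts (difference 1.64, SE 0.29, adjusted p = 0.00105). On these probe sets both were separate between the genotypes, and the WT mean of Vcan, 5.58, lay below the filter level, so that it passed the filter through its KLF15-null signal. The other Fn1 probe set, below the filter, gave 0.10 with overlap (adjusted p = 0.49 with no filter). A second Vcan probe set, also with a WT mean below the filter level, was called higher at 0.74 with overlap (adjusted p = 0.0276). The last Vcan probe set, below the filter, gave 0.24 with overlap (adjusted p = 0.12 with no filter). Perlecan (Hspg2), a heparan sulfate proteoglycan of basement membranes, had a small fall, at 9.08, 8.97 and 9.11 in KLF15-null hearts against 9.42, 9.27, 9.59 and 9.42 in WT hearts (difference -0.37, SE 0.11, adjusted p = 0.0184). Its other probe set gave 0.47 (adjusted p = 0.065), and the call was lost with median centring (adjusted p = 0.0634) and with the replicate number as a block (adjusted p = 0.0545). The block leaves out WT 4. Nidogen 1 (Nid1), which joins laminin to collagen IV, gave 0.37 (adjusted p = 0.132) on its brightest probe set. On the dimmer probe set Nid1 fell by 0.74 (adjusted p = 0.0015). The KLF15-null mean of that dimmer probe set lay below the filter level, so that it was tested through its WT signal.

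All 3 fibroblast receptors passed. Ddr2, a receptor tyrosine kinase for fibrillar collagen, was at 7.55, 7.55 and 7.22 in KLF15-null hearts and 8.12, 8.28, 8.55 and 8.38 in WT hearts (difference -0.89, SE 0.13, adjusted p = 0.000382). Pdgfra, the PDGF receptor that marks cardiac fibroblasts, was at 9.55, 9.53 and 9.22 in KLF15-null hearts and 8.63, 8.77, 9.13 and 9.07 in WT hearts (difference 0.53, SE 0.15, adjusted p = 0.0163). On these probe sets the 2 markers of the same cells thus moved in opposite directions. The Pdgfra call was lost under cyclic loess (adjusted p = 0.0549) and without WT 2 (adjusted p = 0.0517). The other Pdgfra probe set lay below the filter and gave -0.26 with overlap (adjusted p = 0.142 with no filter). Pdgfrb, the PDGF receptor of pericytes and fibroblasts, was at 10.64, 11.07 and 10.75 in KLF15-null hearts and 8.97, 9.05, 9.43 and 9.01 in WT hearts on its brightest probe set (difference 1.71, SE 0.15, adjusted p = 2.09e-05). Its other probe set read 7.42, 6.69 and 6.89 in KLF15-null hearts and 7.29, 7.45, 7.50 and 7.48 in WT hearts, a fall of 0.43 (adjusted p = 0.0448) with overlap. No direction can be given for Pdgfrb from these arrays.

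Probe sets of a gene often disagreed, for the members as for genes in general. Of 16 members with at least 2 tested probe sets, 10 (62.5%) had differences of unlike sign, against 55.0% of all such genes (1511), and 2 of the 16, Pdgfrb and Serpinh1, were called in opposite directions, which is 12.5% against 21.0% (576 of 2748) of all such genes. Which transcripts or probes account for it was not tested.

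**Figure D2:**
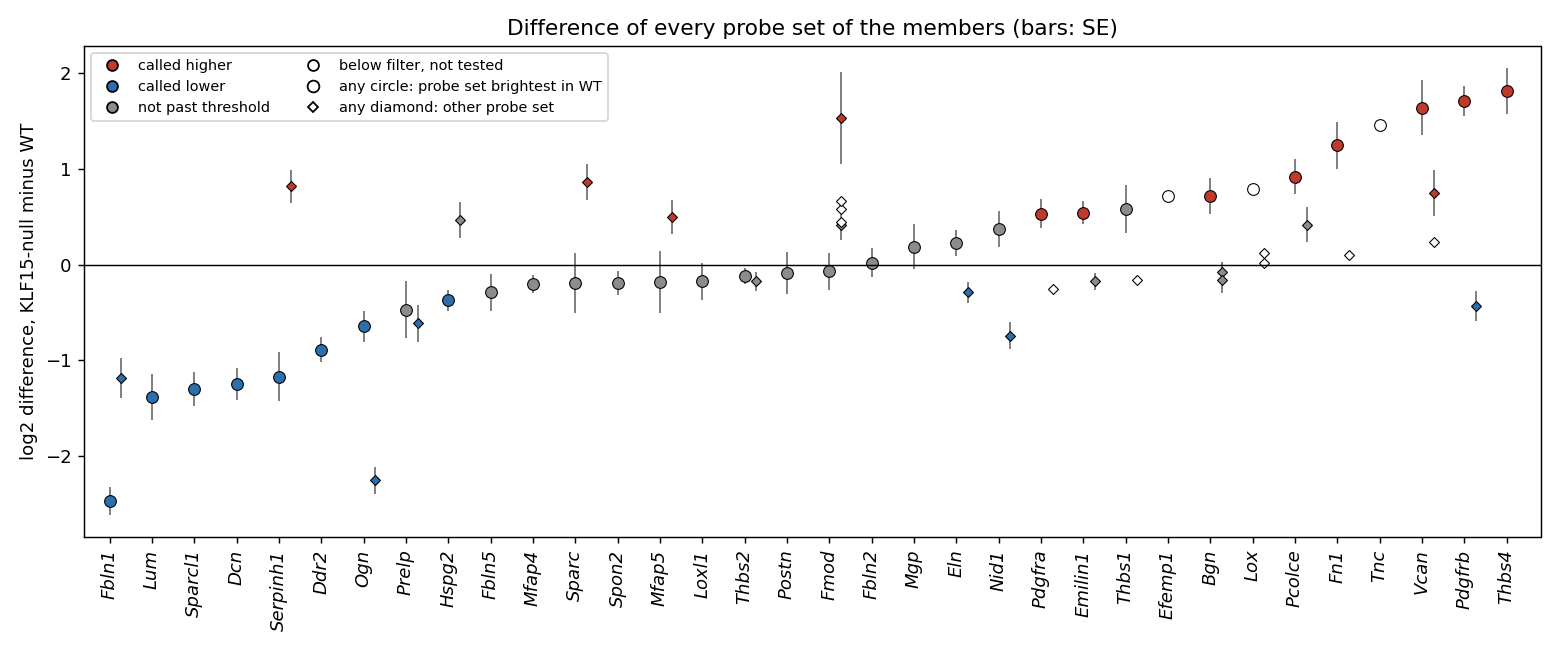
Log2 difference, KLF15-null minus WT (vertical axis, bars SE), of every probe set of the 34 members, ordered by the probe set brightest in WT (circles), with other probe sets as diamonds; color gives the call and white marks probe sets below the filter. Fbln1 and Ogn were lower on both of theirs, whereas the diamonds of Serpinh1 and Pdgfrb lie across 0 from their circles.

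The matrix genes also varied together among the WT hearts, a pattern noticed after the values were seen and given as a description. WT 3 and WT 4 both lay above WT 1 and WT 2 in 27 of the 31 genes (87.1%), against 17.2% of all tested genes. WT 1 was the lowest of the WT arrays in 25 of the 31, against 29.9% of all tested genes. The median deviation from the group mean over the 31 genes was 0.12, -0.10 and -0.04 on the KLF15-null arrays, and -0.27, -0.13, 0.32 and 0.15 on the WT arrays, while that over all genes stayed between -0.04 and 0.05. The median SD of a member was 0.21 among KLF15-null arrays and 0.32 among WT arrays, beside 0.17 and 0.11 for all genes. The spread of WT hearts is thus part of the error of every member. In whole-heart RNA, fewer cells of a type and less RNA per cell cannot be told apart.

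**Figure D3:**
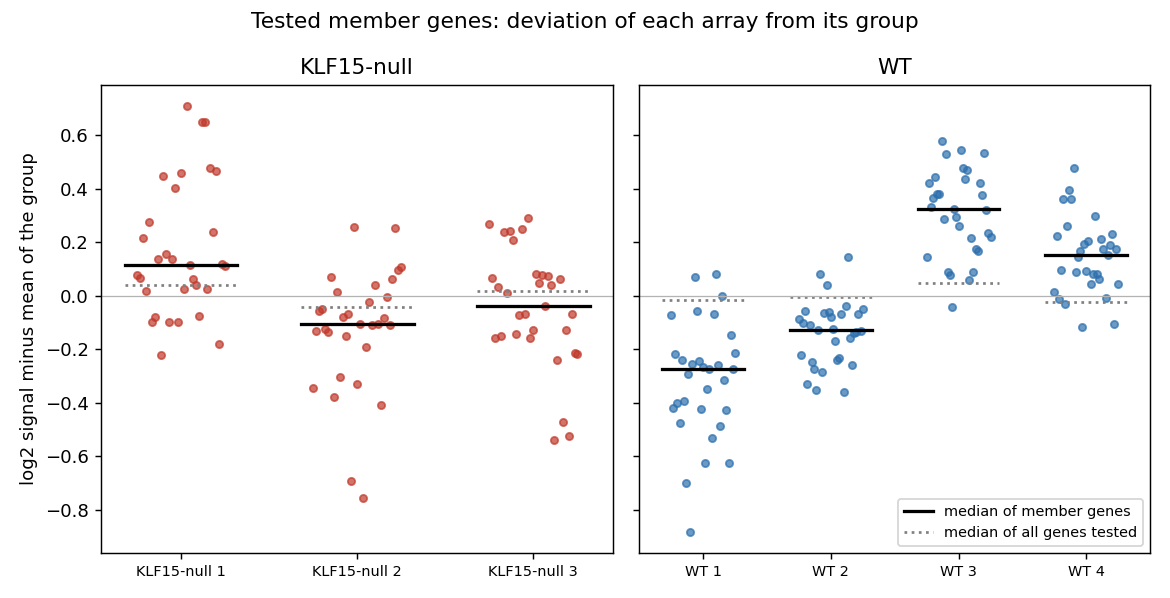
Log2 signal minus the mean of its own group (vertical axis) for the 31 tested members (points) on each array, KLF15-null on the left and WT on the right, with the median of the members (solid) and of all genes (dotted). WT 1 and WT 2 sit below their group and WT 3 and WT 4 above it, at medians of -0.27, -0.13, 0.32 and 0.15.

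Fibroblast identity genes outside the members followed the same WT order in 15 of 18. Of the 18, 5 were higher in KLF15-null hearts and 4 lower (median difference 0.05). Scara5, a ferritin receptor of fibroblast subsets, fell by 1.77 (adjusted p = 7.4e-06) and Lamc1, a laminin chain, by 0.91 (adjusted p = 0.00129). S100a4, a calcium-binding protein of fibroblasts and leukocytes, rose by 2.68 (adjusted p = 8.0e-05) over a WT mean of 5.59, below the filter level, and Dpep1, a dipeptidase, by 1.17 (adjusted p = 0.00054). The mean of this list was 8.48, 8.49 and 8.37 in KLF15-null hearts, against 8.04, 8.24, 8.62 and 8.48 in WT hearts, overlapping between the genotypes. With that mean as a covariate, an alternative chosen after seeing the data, all 16 called members kept their call and 2 more were lower, Fbln5 at -0.43 (adjusted p = 0.0195) and Prelp at -0.68 (adjusted p = 0.024). The list itself holds called genes in both directions, so its mean is not a measure of fibroblast content. The part of fibroblast content in the members' differences was not tested.

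Among 23 other matrix glycoproteins and proteoglycans, 6 were higher and 4 lower (median 0.20). The connective tissue growth factor Ccn2 rose by 1.64, its relative Ccn4 by 0.82 and the TGF-beta induced adhesive protein Tgfbi by 2.74, while Ltbp4, which holds latent TGF-beta in the matrix, fell by 1.82. Of 16 matrix proteases and their inhibitors, 6 were higher and 3 lower (median 0.10). The metalloprotease Mmp3 rose by 2.70, and of the metalloprotease inhibitors Timp1 rose by 3.60 and Timp4 by 0.998, while Timp2 fell by 1.25. Of 12 collagen maturation enzymes, 1 was higher and 5 lower (median -0.25): the lysyl hydroxylases Plod1 and Plod2 fell by 0.70 and 1.26, the galactosyltransferase Colgalt1 by 0.81 and Pcolce2, a relative of the Pcolce that rose, by 0.63. The WT means of Ccn4 (5.58) and Mmp3 (5.05) lay below the filter level, so that both were tested through their KLF15-null signal. Each gene named here had an adjusted p of at most 0.00297.

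Markers of other heart cell types were read beside the members; list means were taken over all genes of a list with a probe set, those below the filter included. Of 12 endothelial genes, 0 were higher and 4 lower (list mean 7.76 to 8.36 in KLF15-null hearts, 8.42 to 8.68 in WT hearts), with Pecam1 and Emcn, both endothelial surface proteins, at -2.24 and -1.44. Of 12 smooth muscle and pericyte genes, 0 were higher and 3 lower (8.33 to 8.59 in KLF15-null hearts, 8.60 to 8.92 in WT hearts), with the potassium channel subunit Abcc9 at -1.53 and smooth muscle myosin Myh11 at -1.44. Of 12 macrophage and monocyte genes, 4 were higher and 2 lower (7.64 to 7.96 in KLF15-null hearts, 7.10 to 7.82 in WT hearts), with the protease Ctss at 1.996 and the lipopolysaccharide receptor Cd14 at 1.64 against the complement genes C1qa at -1.24 and C1qb at -0.77. C1qb was named after its values were seen. Of 6 neutrophil genes, 2 were higher (6.57 to 6.67 in KLF15-null hearts, 6.01 to 6.36 in WT hearts), S100a8 at 2.19 and S100a9 at 1.41. Of 2 epicardial and mesothelial genes tested 1 was higher, Aldh1a2, an enzyme of retinoic acid synthesis, at 1.92 (5.35 to 5.48 in KLF15-null hearts, 5.14 to 5.25 in WT hearts). Endothelial, smooth muscle, neutrophil and epicardial list means thus did not overlap between genotypes. The gap for smooth muscle was narrow, from 8.593 to 8.596. Median differences of the tested genes were near 0, at -0.06 for endothelium, -0.08 for smooth muscle and -0.04 for neutrophils. The 4 neutrophil genes that did not pass lay between -0.17 and -0.03, and Krt8, the other epicardial gene tested, gave 0.08. The part of these cell types in the members' differences was not tested. Among 12 cardiomyocyte genes 2 were higher and 1 lower. Few genes of the other lists passed the filter: 1 of 3 lymphocyte genes was lower, 1 of 5 Schwann cell genes was higher, and of 2 adipocyte genes and 1 blood gene 0 passed the limma threshold.

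**Figure D4:**
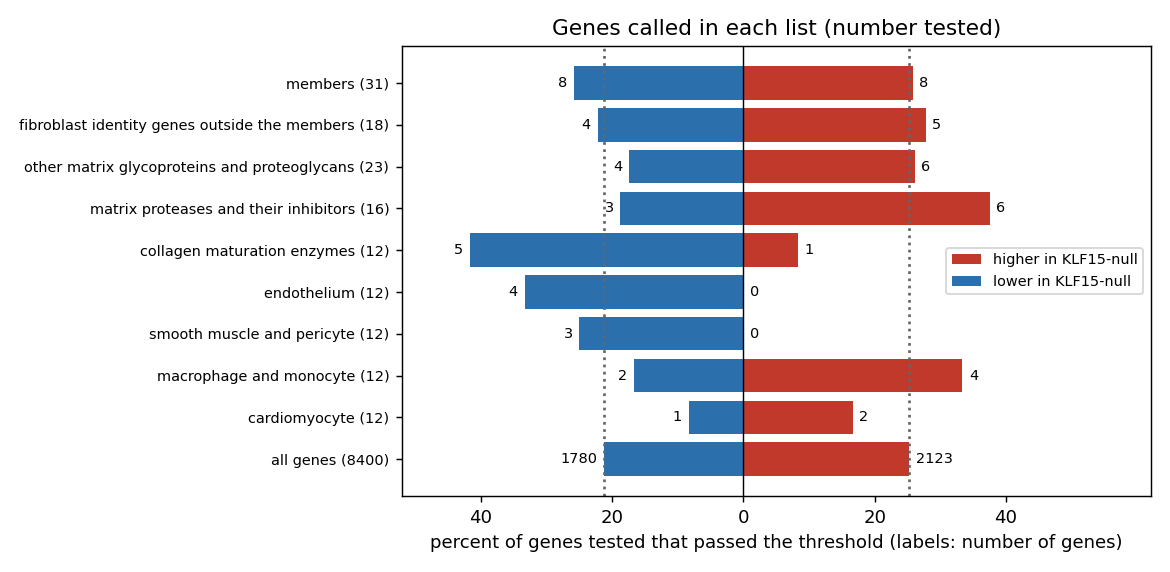
Percent of tested genes (horizontal axis) called higher (red, right) or lower (blue, left) in KLF15-null hearts for the members and other lists, with the number of genes at each bar and dotted lines at the shares of all genes, 25.3% and 21.2%. The members lie near the dotted lines in both directions, while 5 of 12 collagen maturation enzymes were lower and 1 was higher.

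The brightest probe sets were shifted as a whole, and this touches the brighter members. Genes among the brightest 10% of probe sets had a median difference of 0.25 as deposited, -0.04 after quantile normalization and -0.02 after cyclic loess. Of all calls, 54.4% were higher as deposited and 66.5% with each array centred on its median, which moved the median of all genes to 0.10 from 0.01. No called member changed sign under these 3 scalings, and Bgn, Pdgfra and Hspg2 each lost its call under 1 of them.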

How the data were processed

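RNA of 3 KLF15-null and 4 WT hearts was extracted with Trizol and labelled by the Affymetrix one-cycle 3′ procedure, per the labels' protocols. Each deposited value is a log2 signal of a probe set; the scale was inferred from the range, 3.20 to 14.3. GCOS is named in the submitters' processing notes without a version; summarization, scaling and filtering steps were not given in the sources used here. No further scaling was applied.

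Probe sets were named through the platform annotation (22626 in all: 20380 with 1 symbol, 691 with several, 1555 with none); all 61 member probe sets matched RefSeq by gene number. Those with a 7-array mean at or above the 40th percentile were tested with limma 3.58.1 in R 4.3.3 (linear model, intensity trend, two-sided, Benjamini-Hochberg over 13576 probe sets, threshold 0.05). Every adjusted p comes from limma. The procedure was tested on simulated data in which 200 of 13576 probe sets were changed, far fewer than were called here. It recovered 32% of changes of 0.5 log2 and 94% of changes of 1 log2. A gene that did not pass can thus hold a change of 0.5 log2. A gene was read on the single-symbol probe set with the highest WT mean.

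All members were named with their values, and in other lists up to 4 called genes by smallest p; Aspn, Omd and the other proteoglycan neighbours were chosen by gene order. The members and lists were chosen with earlier results of these data known. Alternatives were other filters, scalings, variance models, thresholds and probe set rules, a replicate block and each array left out. The block used only the replicate numbers shared by both genotypes, so WT 4 was left out of it. A further alternative, the fibroblast list mean as a covariate, was chosen after seeing the data. Depth does not apply to arrays; their number limits the precision.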

Additional observations from a re-analysis of the deposited data

Results flagged for a closer look

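In 4 of the 31 tested members, 1 WT array stood apart from the other 3 by Dixon's test for an outlying value, a test that chance passes in about 1 in 20 groups. That rate need not hold here, since the members varied together among the WT arrays. In addition, WT 3 and WT 4 held the same value for Emilin1 and for Thbs1. The share over all tested genes is not given. Emilin1, which rose, had WT 1 lowest at 7.22. Thbs1, which did not pass, had WT 1 lowest at 5.69. Pdgfrb, whose probe sets gave opposite calls, had WT 3 highest at 9.43. Mfap4, which did not pass, had WT 4 highest at 6.91. The KLF15-null group of 3 was too small for this test.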

How the results depend on the processing

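Of 641 recomputed values of single members, 586 kept direction and side of the threshold, 15 lost the threshold, 12 gained it and 28 changed sign. Part of the 586 was fixed in advance. Other filters, other thresholds and leaving out the intensity trend cannot change a difference, and a 2-fold limit cannot alter a gene that did not pass. Other probe set rules cannot change the difference of a gene with 1 probe set. Dcn, Fbln1, Fn1, Lum, Sparcl1, Thbs4 and Vcan, 7 of the 16 called genes, kept their call in every setting that gave them a value. Of the changes of sign, 3 were in called genes, Hspg2 at 0.046 after averaging the probe sets of each gene (adjusted p = 0.802), Pdgfrb at -0.43 without probe sets ending _x_at, _s_at and _a_at (adjusted p = 0.0492) and Serpinh1 at 0.82 with the probe set brightest over all 7 arrays (adjusted p = 0.003); each follows from which probe set is read. The other 25 were in 8 genes that did not pass. Averaging probe sets gave Eln -0.032, Fmod 0.63, Mfap5 0.16, Nid1 -0.19 and Sparc 0.33; array quality weights gave Fbln2 -0.024, Fmod 0.20 and Postn 0.024; median centring gave Fmod 0.019 and Postn 0.0064; the replicate block gave Fmod 0.048 and Postn 0.013; cyclic loess gave Mgp -0.14 and quantile normalization -0.21; the covariate gave Fbln2 -0.068. The replicate block leaves out WT 4, and its values for Fmod and Postn were the same as those without WT 4. Each of these changes of sign was thus counted under both settings. With single arrays left out, Fbln2 ranged from -0.086 to 0.13, Fmod from -0.19 to 0.048, Mgp from -0.020 to 0.37, Postn from -0.26 to 0.071 and Sparc from -0.55 to 0.18. A limit of at least 2-fold left 4 genes higher and 5 lower, and 5 probe sets higher and 7 lower. Without the suffixed probe sets 8 probe sets were higher. With no filter 11 genes were higher, Efemp1, Lox and Tnc being added. Array quality weights brought Eln (0.47, adjusted p = 0.00728) and Mfap4 (-0.22, adjusted p = 0.0262) past the threshold. Leaving out each array in turn gave 7 to 9 genes higher and 8 to 9 lower, and 9 to 14 probe sets higher and 11 to 14 lower. Deviations of same-numbered arrays correlated at -0.11, 0.00 and 0.19. Arrays of unlike number were not compared, so these values cannot tell whether same-numbered arrays were related. With the replicate block 8 genes were higher and 7 lower. Dim WT signals, below the filter level for Vcan, Tnc, Lox and Efemp1, limit what their fold changes can show.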
